A study of Mus musculus with 15 samples.

Results

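The genes described here are the DNA replication machinery together with cyclin E: 47 genes chosen by name for their place in origin licensing, origin firing, fork synthesis, the copying of chromatin marks and the E2F and cyclin E step that precedes S phase. Probe sets were taken where the platform annotation gave exactly the gene's symbol, and the brightest probe set stood for each gene. In this way 46 of the 47 genes were measured, among 18193 genes in all. Chaf1a, a subunit of the chromatin assembly factor, had no probe set carrying its symbol alone and was not analysed here. All values are log2 intensities of the authors' RMA values, and a change is a difference on that log2 scale.

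The arrays measured RNA from leukemic spleens of mice with acute myeloid leukemia (AML). Below, a leukemia in a comparison stands for such a bulk spleen sample. The leukemia carries the Mll-AF9 fusion and a mutant NRASG12V whose expression doxycycline abolishes, so leukemias of every group carried Mll-AF9 and the NRASG12V gene. SCID/Beige mice, which lack most lymphocytes but keep their other blood-forming and stromal cells, received NRASG12V/Mll-AF9 cells by tail vein and were aged 20 days to full leukemia. The RAS-OFF groups held 2 arrays each at 48, 60, 72, 84 and 96 h after doxycycline was started by intraperitoneal injection and in the drinking water, 10 arrays in all. The RAS-ON group held 5 arrays of vehicle-treated leukemias at 0 h. The labels do not say whether each replicate came from its own mouse, so the p-values speak only to the spread among these arrays, and part of that spread may be technical. No group held leukemias treated with doxycycline without loss of RAS, or vehicle-treated leukemias at the later times, so the drug, the elapsed time and the loss of NRASG12V cannot be told apart.

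Eukaryotic replication starts where the origin recognition complex sits on DNA. In G1, Cdc6 and Cdt1 load the ring-shaped MCM helicase there, and geminin blocks further loading once S phase begins. The Cdc7-Dbf4 kinase and cyclin-dependent kinases then recruit Cdc45 and the GINS complex to fire the origin, after which primase and the replicative polymerases copy the strands behind the helicase, held by the PCNA clamp that the RFC complex loads. Cyclin E with Cdk2 acts at the entry to S phase, and many genes of this machinery are textbook targets of E2F transcription factors. In leukemias and in regenerating blood-forming tissue these genes are read as marks of cycling cells.

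E2F binding is classically described at short words in the promoters of replication genes, so the promoters of 4 members that the results turn on are given here, from RefSeq on mouse build GRCm38.p6 and read 5′ to 3′ on the gene's strand. Cdc6 lies at chr11:98907901-98908200 on the plus strand, Orc1 at chr4:108579204-108579503 on the plus strand, Mcm6 at chr1:128359656-128359955 on the minus strand and Ccne1 at chr7:38107441-38107740 on the minus strand. Each window runs from 250 bases before the start that the RefSeq promoter table uses to 50 after it. For Orc1 and Cdc6 the RefSeq gene record begins further upstream, at position 108575705 of chromosome 4 and 98907709 of chromosome 11, so these windows lie inside the record. Capitals mark the words TTTCCCGC, TTTCGCGC, TTTGCCGC and TTTGGCGC on either strand; words may overlap.
Cdc6: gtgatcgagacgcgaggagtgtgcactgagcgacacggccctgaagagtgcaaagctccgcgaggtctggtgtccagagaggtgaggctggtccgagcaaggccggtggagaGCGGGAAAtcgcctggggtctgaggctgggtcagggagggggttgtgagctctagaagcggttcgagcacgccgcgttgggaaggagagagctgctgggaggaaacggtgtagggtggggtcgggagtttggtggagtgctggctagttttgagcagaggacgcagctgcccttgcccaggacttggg
Orc1: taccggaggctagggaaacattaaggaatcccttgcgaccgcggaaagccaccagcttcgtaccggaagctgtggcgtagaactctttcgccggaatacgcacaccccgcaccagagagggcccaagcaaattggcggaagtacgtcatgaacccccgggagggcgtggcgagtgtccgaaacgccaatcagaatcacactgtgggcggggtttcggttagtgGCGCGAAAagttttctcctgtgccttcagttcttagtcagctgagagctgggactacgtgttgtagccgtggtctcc
Mcm6: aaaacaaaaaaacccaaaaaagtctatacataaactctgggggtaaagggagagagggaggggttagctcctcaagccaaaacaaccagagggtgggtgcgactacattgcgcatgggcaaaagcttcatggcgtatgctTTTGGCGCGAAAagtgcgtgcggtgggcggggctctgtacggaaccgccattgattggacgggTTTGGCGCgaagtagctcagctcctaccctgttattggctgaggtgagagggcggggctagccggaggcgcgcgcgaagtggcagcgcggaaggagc
Ccne1: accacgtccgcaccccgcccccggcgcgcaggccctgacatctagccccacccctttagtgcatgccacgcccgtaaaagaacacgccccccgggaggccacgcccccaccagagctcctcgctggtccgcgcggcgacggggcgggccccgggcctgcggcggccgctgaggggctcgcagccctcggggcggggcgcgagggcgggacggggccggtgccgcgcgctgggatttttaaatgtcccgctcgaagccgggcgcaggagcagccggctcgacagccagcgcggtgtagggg
Cdc6 holds 1 word, whose first base lies at -138 from the start used, and Orc1 holds 1 at -27. Mcm6 holds 3, at -110, -106 and -47, of which the first pair overlap, and Ccne1 holds none in this window. Of the 47 members, 39 had an entry in the promoter table, with 49 promoters between them. At least 1 word stood in 17 of the 49 (34.7%), each from a different gene, against 744 of 32851 mouse promoters of the same length (2.26%). The CCAAT word stood in 57.1% of the members' promoters against 37.4% of all, and GGGCGG in 71.4% against 35.7%. These matches describe letters in a window; binding was not measured.

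Median intensity was 149.99 to 156.53 on every array, and precision is limited by how few arrays each group held. The labels do not say whether the mouse Nras probe set reads the transgene. It averaged 10.62 ± 0.17 (SD, n = 10) in RAS-OFF and 10.94 ± 0.18 (SD, n = 5) in RAS-ON arrays. Its log2 intensities were 10.34 to 10.96 in RAS-OFF and 10.72 to 11.19 in RAS-ON arrays. The ranges thus overlapped, while the RAS-OFF mean lay below the lowest RAS-ON array. Gapdh control probes read RNA integrity as the signal at the 3-prime end less that at the 5-prime end. This stood at 1.22 for replicate 1 at 96 h of RAS-OFF, against 0.10 to 0.35 elsewhere. The RAS-ON arrays fell into a set of replicates 1 to 3 and a set of replicates 4 and 5. Pairs of arrays differed with an SD over genes of 0.166 to 0.219 within the first set, 0.169 within the second and 0.236 to 0.302 between them. Of the 11 measured erythroid markers, among them Gata1 and Klf1, 11 were higher in RAS-OFF than in RAS-ON spleens, with a median change of 1.67. Their summed intensity was 71806 to 94194 in RAS-OFF and 28122 to 32962 in RAS-ON arrays. Of 10 myeloid leukemia markers 2 were higher (20.1% of all genes) and 4 lower (28.7%). Kit (0.43) and Ptprc (0.17) were higher, and Elane (-2.07), Cebpa (-1.48), Mpo (-1.32) and Spi1 (-1.11) lower. Itgam, Hoxa9, Meis1 and Csf1r did not pass. The summed intensity of the 10 was 25345 to 35718 in RAS-OFF and 48163 to 51049 in RAS-ON arrays, and bright genes weigh most in such a sum. The lowest intensity of any probe set was 8.57, so no marker could read 0. In RAS-OFF arrays single intensities went down to 53.4 for B cell and 36.5 for T cell markers, below every array median. In such bulk samples, more cells of a type and more RNA per cell cannot be told apart.

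The first comparison asks which replication genes differed once NRASG12V was off. Averaged over the 5 RAS-OFF times, 29 of the 46 measured genes were higher than in RAS-ON leukemias, 3 were lower and 14 did not pass the test (limma, adjusted p below 0.05 over all genes). Over all genes tested 20.1% were called higher and 28.7% lower. The median change of the 46 genes was 0.19, against -0.04 over all genes, and 35 of the 46 changes were positive, against 41.9% of all genes. In 8 genes all 10 RAS-OFF arrays lay above all 5 RAS-ON arrays, which is 17.4% of the members and 9.36% of all genes. In 1 gene, Orc3, all RAS-OFF arrays lay below, against 12% of all genes. The 8 genes were Orc1, Orc5, Cdc6, Pcna, Rfc4, E2f2, Ccne1 and Ccne2. Averaging the probe sets of each gene lowered the members' median change to 0.118. Of the 32 calls in either direction, 15 were kept under each of 25 alternative settings.

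Relative to the RAS-ON mean, the median over the 46 genes was 0.06, -0.01, -0.08, 0.05 and -0.01 in RAS-ON replicates 1 to 5. It was then 0.03 and 0.10 at 48 h, -0.10 and -0.03 at 60 h, 0.24 and 0.22 at 72 h, 0.36 and 0.42 at 84 h, and 0.36 and 0.47 at 96 h. The 48 and 60 h arrays thus lay in or close to the range of the RAS-ON arrays, and every array from 72 h on lay above it.

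At 48 h 8 members were higher and 1 lower, against 13.7% of all genes in each direction and 27.4% in either. At 60 h 8 were higher (11.5% of all genes) and 8 lower (14.2%, or 25.8% in either direction). At 72 h 23 were higher (13.4%) and 1 lower (18.3%). At 84 h 32 were higher (15%) and 0 lower (21.8%), and at 96 h 33 were higher (16.7%) and 1 lower (20.9%). These 5 comparisons share the RAS-ON arrays. The median member change was 0.05, -0.07, 0.22, 0.37 and 0.42 at the 5 times in order.

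Only 7 members were higher at every time from 48 h on: Orc1, Orc5, Cdc6, Rfc4, E2f2, Ccne1 and Ccne2. Pcna was higher from 60 h on. A set of 15 was higher from 72 h on, 9 from 84 h on and Rpa2 at 96 h, while 13 were not higher at 96 h. The change was lowest at 60 h in 40 of the 46 genes and at 48 h in 6. It was highest at 96 h in 34, at 84 h in 11 and at 72 h in E2f2. These times of lowest and highest change were not counted over all genes. The members share the same 2 arrays at each time, so they are not independent of each other. The step between 48 and 60 h was not tested by itself. Counts at single times rest on 2 arrays: 5 in place of 8 were higher at 60 h without either 60 h array, and 13 in place of 23 at 72 h without either 72 h array. The count lower at 60 h was 1 without 60 h replicate 1, 2 without 60 h replicate 2 and 5 without RAS-ON replicate 1.

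**Figure D1:**
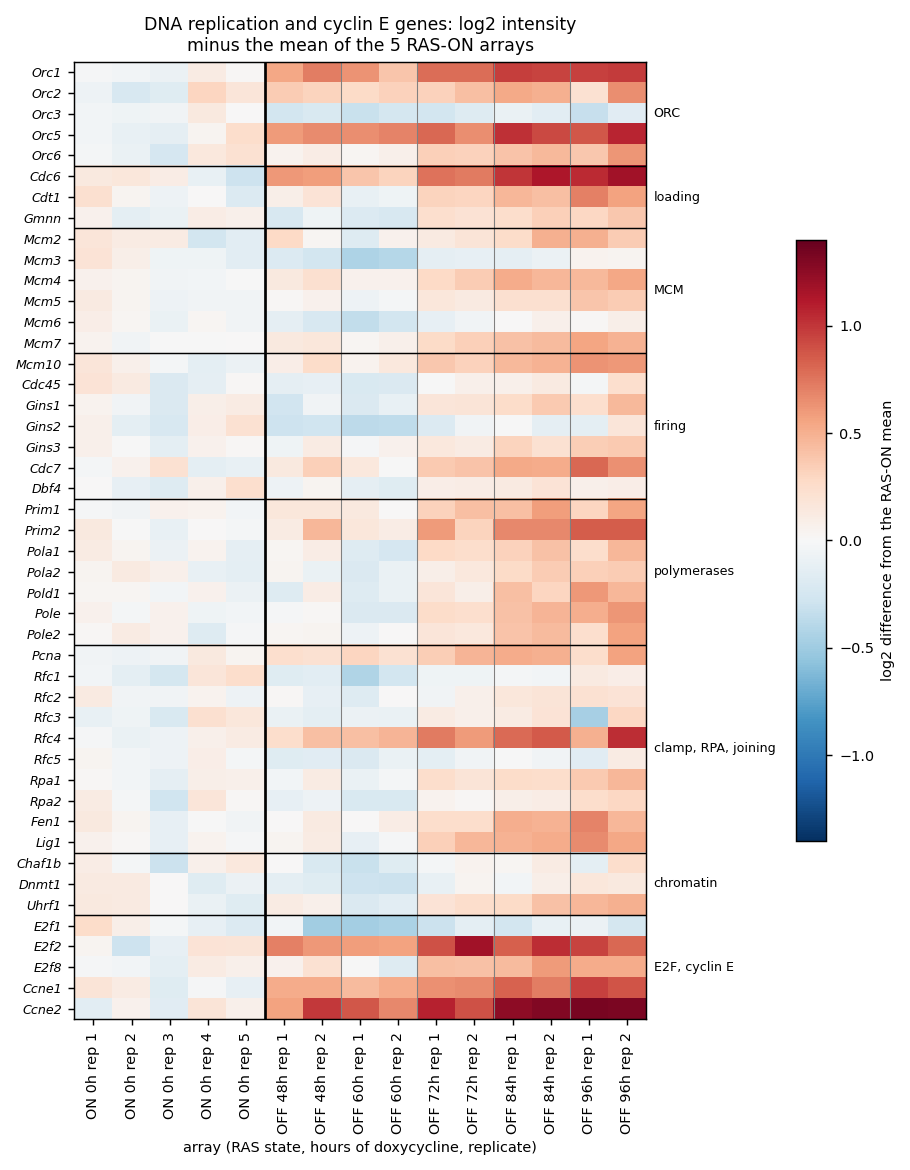
Log2 intensity of the 46 measured genes (rows, grouped by role) on each of the 15 arrays (columns), minus the mean of the 5 RAS-ON arrays; red is higher and blue lower. Most rows stay near 0 or below it at 48 and 60 h and are above it at 84 and 96 h, while 16 rows, among them Orc1, Cdc6, Pcna and Ccne2, are above it on all 10 RAS-OFF arrays.

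Among the origin recognition complex subunits, which mark where replication may begin, 4 of 5 were higher in RAS-OFF leukemias and 1 was lower. Orc1, the subunit whose level varies through the cell cycle, had log2 intensities of 8.54, 8.52, 8.47, 8.67 and 8.58 on the RAS-ON arrays. It was 9.09 and 9.27 at 48 h, 9.18 and 8.94 at 60 h, 9.33 and 9.34 at 72 h, 9.52 and 9.50 at 84 h, and 9.52 and 9.53 at 96 h. The lowest RAS-OFF array thus lay above the highest RAS-ON array, and the change was 0.77 ± 0.05 (SE; limma, adjusted p = 2.562e-08), or 1.7-fold. Its promoter holds the word shown at -27. Orc5, a core ATP-binding subunit, averaged 10.16 ± 0.17 (SD, n = 10) in RAS-OFF and 9.36 ± 0.15 (SD, n = 5) in RAS-ON leukemias, a change of 0.79 ± 0.06 without overlap. Orc6, the smallest subunit, rose by 0.27 ± 0.07 and was 10.31, 10.38, 10.30 and 10.34 at 48 and 60 h, inside the RAS-ON range of 10.04 to 10.48. It passed the test from 72 h on. Orc2, a core subunit, rose by 0.39 ± 0.09, with 9.58 to 10.02 in RAS-OFF and 9.15 to 9.66 in RAS-ON arrays. Its lowest RAS-OFF array was 96 h replicate 1, the array with the high Gapdh 3-prime value.

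Orc3, another core subunit of the same complex, went the other way on its brightest probe set. Its RAS-ON arrays read 9.51, 9.50, 9.51, 9.69 and 9.56, and its RAS-OFF arrays 9.30 and 9.34 at 48 h, 9.24 and 9.31 at 60 h, 9.29 and 9.38 at 72 h, 9.46 and 9.40 at 84 h, and 9.23 and 9.40 at 96 h. Orc3 fell by 0.22 ± 0.05 (SE; limma, adjusted p = 0.002307) and was called lower at 48, 60, 72 and 96 h. The span between groups was small, since the highest RAS-OFF value, 9.46, stood just under the lowest RAS-ON value, 9.50. Its other probe sets gave -0.34 (called lower, limma adjusted p = 0.003367) and 0.10 (not past the test). With a replicate block in the fit the call was lost (-0.17, limma adjusted p = 0.0619). Orc3's promoter also holds an E2F word, at -41.

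Of the factors that load the helicase and their inhibitor, 2 rose over all RAS-OFF times and 1 did not pass. Cdc6, the ATPase that brings the MCM ring to the origin, read 10.97, 10.99, 10.93, 10.73 and 10.54 on the RAS-ON arrays. It read 11.44 and 11.41 at 48 h, 11.21 and 11.14 at 60 h, 11.59 and 11.56 at 72 h, 11.83 and 11.96 at 84 h, and 11.87 and 12.01 at 96 h. All RAS-OFF arrays were higher than all RAS-ON arrays, with the 60 h pair lowest among them and the 84 and 96 h pairs highest. The change was 0.77 ± 0.07 over all times (SE; limma, adjusted p = 4.58e-07) and 1.11 at 96 h, or 2.16-fold. Cdt1, its partner in loading, was 12.54 and 12.64 at 48 h and 12.35 and 12.39 at 60 h, within the RAS-ON range of 12.26 to 12.67. It then rose, reaching 13.16 and 13.02 at 96 h, a change of 0.63 at that time. Over all times Cdt1 rose by 0.29 ± 0.06, or 0.13 with the mean of its probe sets, which also passed (adjusted p = 0.0379).

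Gmnn, which encodes geminin, the inhibitor of Cdt1, did not pass at 48 or 60 h, with changes of -0.14 and -0.21. Its RAS-ON arrays read 11.69, 11.48, 11.53, 11.73 and 11.70. Its early arrays read 11.40 and 11.56 at 48 h and 11.44 and 11.40 at 60 h, and its later arrays 11.86 and 11.82 at 72 h, 11.87 and 11.95 at 84 h, and 11.91 and 12.01 at 96 h. The average over RAS-OFF times gave a change of 0.10 ± 0.05 that did not pass the test (limma, adjusted p = 0.1567), although every array from 72 h on was above every RAS-ON array. At 84 and 96 h the changes of 0.29 and 0.34 passed.

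The MCM helicase, a hexamer of Mcm2 to Mcm7 that unwinds the parental strands, gave 4 subunits higher, 1 lower and 1 that did not pass. Mcm7 read 13.12, 13.02, 13.07, 13.07 and 13.08 in RAS-ON arrays, then 13.21 and 13.23 at 48 h, 13.10 and 13.14 at 60 h, 13.34 and 13.40 at 72 h, 13.48 and 13.51 at 84 h, and 13.63 and 13.56 at 96 h. Its change was 0.29 ± 0.04 (SE; limma, adjusted p = 4.015e-05), and 1 of the 60 h arrays lay inside the RAS-ON range. Mcm4 rose by 0.31 ± 0.04. Mcm5 rose by 0.15 ± 0.05 and Mcm2 by 0.21 ± 0.08.

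Mcm3 and Mcm6 were called lower at 60 h and did not pass at 84 or 96 h. Mcm3 read 12.45, 12.34, 12.19, 12.20 and 12.11 in RAS-ON arrays, then 12.07 and 12.00 at 48 h, 11.82 and 11.86 at 60 h, 12.14 and 12.14 at 72 h, 12.13 and 12.17 at 84 h, and 12.31 and 12.30 at 96 h. Over all RAS-OFF times Mcm3 fell by 0.16 ± 0.06 (SE; limma, adjusted p = 0.02405), and the 60 h arrays were the only pair called lower, by 0.42. Mcm6, whose promoter holds 3 words, read 11.98 and 12.08 at 60 h, where it was called lower with a change of -0.30, and 12.34 to 12.41 at 84 and 96 h, inside the RAS-ON range of 12.24 to 12.42. Its overall change of -0.09 ± 0.05 did not pass, and its direction turns with the probe set: the other 2 gave 0.26 (called higher, adjusted p = 0.003412) and 0.10 (not past the test). Several of these calls rest on single arrays: the Mcm3 call was lost without RAS-ON replicate 1 (adjusted p = 0.0819) or 2 (0.0674), and with RAS-ON replicates 4 and 5 alone (-0.06, 0.459), that of Mcm5 without RAS-ON replicate 3 (0.0521), and that of Mcm2 without any of 8 arrays (up to 0.142, without RAS-ON replicate 4).

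Of the 7 genes of origin firing, 3 rose over all RAS-OFF times and 4 did not pass. Cdc7, the catalytic subunit of the kinase that phosphorylates the loaded helicase, read 9.69, 9.78, 9.93, 9.58 and 9.62 in RAS-ON arrays and 9.86, 10.06, 9.87 and 9.72 at 48 and 60 h. It was 10.08 and 10.12 at 72 h, 10.25 and 10.24 at 84 h, and 10.53 and 10.36 at 96 h. The 10.06 of 48 h replicate 2 and all arrays from 72 h on thus lay above every RAS-ON array, while the other early arrays overlapped RAS-ON. The change of Cdc7 was 0.39 ± 0.06 (SE; limma, adjusted p = 0.0001545). Its activating partner Dbf4 changed by 0.03 ± 0.06, which did not pass, with 10.88 to 11.25 in RAS-OFF and 10.87 to 11.28 in RAS-ON arrays. Mcm10, which helps to start unwinding, rose by 0.34 ± 0.06 on its brightest probe set. Its other 2 gave 0.07 and -0.12, and the mean of the 3 gave 0.10, which did not pass (adjusted p = 0.0918). Cdc45, the helicase cofactor, changed by -0.02 ± 0.07.

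In the GINS complex, the other helicase cofactor, 1 of 3 genes rose. Gins3 rose by 0.16 ± 0.05, a call lost without RAS-ON replicate 3 (adjusted p = 0.0554), and Gins1 changed by 0.10 ± 0.06, which did not pass. Gins2 read 9.91 and 9.92 at 48 h, 9.83 and 9.84 at 60 h, 10.01 and 10.15 at 72 h, 10.19 and 10.07 at 84 h, and 10.06 and 10.36 at 96 h, against 9.96 to 10.40 in RAS-ON arrays. Its change of -0.16 ± 0.07 did not pass over all times, while at 60 h it was called lower by 0.36. The other Gins2 probe set was called lower over all times (-0.48, limma adjusted p = 0.005731). Leaving out RAS-ON replicate 3 brought the overall Gins2 change past the test (-0.22, adjusted p = 0.0204), as did leaving out the second 96 h array (-0.19, 0.0419).

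Primase and the replicative polymerases gave 6 of 7 genes higher. Pola2, the second subunit of polymerase alpha, did not pass (0.12 ± 0.06), but passed without RAS-ON replicate 2 (adjusted p = 0.0437). Prim2, the large primase subunit, read 10.09, 9.95, 9.86, 9.96 and 9.93 in RAS-ON arrays. It read 10.08 and 10.43 at 48 h, 10.11 and 10.06 at 60 h, 10.56 and 10.28 at 72 h, 10.63 and 10.63 at 84 h, and 10.81 and 10.81 at 96 h. Its change was 0.48 ± 0.07 (SE; limma, adjusted p = 2.363e-05) over all times and 0.85 at 96 h, with only 2 of the early arrays inside the RAS-ON range. Prim1, the catalytic primase subunit, rose by 0.30 ± 0.05.

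Pole, the catalytic subunit of the leading-strand polymerase, dipped and then climbed. Its RAS-ON arrays read 9.83, 9.74, 9.82, 9.71 and 9.73. Its RAS-OFF arrays read 9.75 and 9.79 at 48 h, 9.56 and 9.56 at 60 h, a mean of 10.01 at 72 h, 10.17 and 10.25 at 84 h, and 10.28 and 10.38 at 96 h. Both 60 h arrays lay below every RAS-ON array and all later ones lay above. Pole was called lower at 60 h (change -0.20; limma, adjusted p = 0.03905) and higher at 72, 84 and 96 h, with 0.25, 0.44 and 0.56. It was the only member called in opposite directions at different times. Pole2, its second subunit, rose by 0.19 ± 0.06 over all times, Pola1, the catalytic subunit of polymerase alpha, by 0.17 ± 0.05, and Pold1, the catalytic subunit of polymerase delta, by 0.17 ± 0.06. These 3 calls were lost without 1 RAS-ON array: Pole2 without replicate 4 (adjusted p = 0.0538), Pola1 without replicate 3 or 5 (0.0511 and 0.0614) and Pold1 without replicate 5 (0.0588).

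Among the clamp, its loader, the single-strand binding proteins and the enzymes that join Okazaki fragments, 5 of 10 rose and 5 did not pass. Pcna, the sliding clamp, read 13.39 to 13.74 in RAS-OFF arrays and 13.13, 13.11, 13.14, 13.32 and 13.22 in RAS-ON arrays, without overlap. Its change was 0.36 ± 0.06 (SE; limma, adjusted p = 0.0001245). Lig1, the ligase that seals the lagging strand, read 11.34 to 11.56 at 48 and 60 h, overlapping the RAS-ON range of 11.34 to 11.52. It then read 11.78 and 11.91 at 72 h, 11.94 and 11.98 at 84 h, and 12.12 and 12.00 at 96 h. Lig1 rose by 0.30 ± 0.05 over all times. Fen1, the flap nuclease that acts just before it, rose by 0.29 ± 0.06, and Rpa1, the large subunit of the single-strand binding protein RPA, by 0.17 ± 0.05.

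Of the 5 subunits of the clamp loader 1 rose. Rfc4 read 10.61, 10.54, 10.56, 10.71 and 10.74 in RAS-ON arrays. It read 10.88 and 11.05 at 48 h, 11.05 and 11.11 at 60 h, 11.36 and 11.23 at 72 h, 11.42 and 11.49 at 84 h, and 11.13 and 11.66 at 96 h. All RAS-OFF arrays were higher, by 0.61 ± 0.08 (SE; limma, adjusted p = 1.052e-05). The other 4 did not pass over all times, with changes of -0.10 for the large subunit Rfc1, 0.05 for Rfc2, -0.01 for Rfc3 and -0.09 for Rfc5. Rfc1 was called lower at 60 h by 0.34. Over all times, its other probe sets gave -0.32 (called lower, limma adjusted p = 0.02244) and 0.09 (not past the test). Rfc3 read 9.11 in RAS-OFF 96 h replicate 1, the array with the high Gapdh value, and 9.45 to 9.87 in the other 9 RAS-OFF arrays, against 9.36 to 9.81 in RAS-ON arrays. Without that array its change was 0.07 (adjusted p = 0.474). That array was also the lower of its pair for Rfc4, Pcna and Orc2. For other members it was the higher, among them Fen1 (12.78 against 12.55), Cdt1 (13.16 against 13.02) and Cdc7 (10.53 against 10.36). The part of RNA quality in these values was not tested.

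For the genes that carry chromatin and DNA methylation through replication, 1 of 3 measured rose. Uhrf1, which guides the maintenance methyltransferase to new DNA, averaged 11.99 ± 0.24 (SD, n = 10) in RAS-OFF and 11.79 ± 0.13 (SD, n = 5) in RAS-ON leukemias, a change of 0.19 ± 0.06. Dnmt1, that methyltransferase, read 11.64 and 11.61 at 48 h, 11.49 and 11.48 at 60 h, 11.67 and 11.81 at 72 h, 11.74 and 11.86 at 84 h, and 11.93 and 11.91 at 96 h, against 11.61 to 11.90 in RAS-ON arrays. It was called lower at 60 h by 0.29 and did not pass over all times. Chaf1b, a subunit of chromatin assembly factor 1, changed by -0.04 ± 0.08 on its brightest probe set. Its other probe set was called lower (-0.18, limma adjusted p = 0.03252).

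The cyclin E and E2F genes held the largest change of any member, that of Ccne2. Ccne2, which encodes cyclin E2, read 9.95, 10.16, 9.94, 10.28 and 10.17 in RAS-ON arrays. It read 10.66 and 11.09 at 48 h, 10.97 and 10.77 at 60 h, 11.18 and 10.99 at 72 h, 11.36 and 11.39 at 84 h, and 11.42 and 11.42 at 96 h. All RAS-OFF arrays were above all RAS-ON arrays, and the change was 1.03 ± 0.08 (SE; limma, adjusted p = 5.945e-08), or 2.04-fold, and 2.5-fold at 96 h. Ccne1, which encodes cyclin E1, read 11.03, 10.96, 10.68, 10.83 and 10.73 in RAS-ON arrays. It read 11.36 and 11.36 at 48 h, 11.29 and 11.36 at 60 h, 11.48 and 11.51 at 72 h, 11.67 and 11.56 at 84 h, and 11.81 and 11.73 at 96 h. Again no RAS-OFF array overlapped RAS-ON, with a change of 0.67 ± 0.06 (adjusted p = 3.248e-07). The Ccne1 promoter printed above holds none of the E2F words, while that of Cdc6 holds 1.

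Of the 3 E2F factors 2 were called higher and 1 lower, on their brightest probe sets. E2f2, an activator E2F, averaged 11.97 ± 0.20 (SD, n = 10) in RAS-OFF and 11.15 ± 0.21 (SD, n = 5) in RAS-ON leukemias, a change of 0.82 ± 0.08 (SE; limma, adjusted p = 1.025e-06) without overlap. It was highest at 72 h, with 12.05 and 12.33, against 11.98 and 12.18 at 84 h and 12.10 and 11.96 at 96 h. E2f8, a repressor E2F, rose by 0.30 ± 0.06 and was called higher from 72 h on. E2f1, the best known activator, read 9.93, 9.76, 9.65, 9.57 and 9.49 in RAS-ON arrays, then 9.64 and 9.19 at 48 h, 9.20 and 9.24 at 60 h, 9.37 and 9.55 at 72 h, 9.42 and 9.57 at 84 h, and 9.60 and 9.43 at 96 h. E2f1 fell by 0.26 ± 0.08 (limma, adjusted p = 0.01967), with overlapping groups, and the call was lost without RAS-ON replicate 1 (adjusted p = 0.0718) or 2 (0.0515). The other 2 E2f1 probe sets gave 0.08 and 0.02, the mean of the 3 gave -0.05 (adjusted p = 0.524), and RAS-ON replicates 4 and 5 alone gave -0.10 (0.449).

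**Figure D2:**
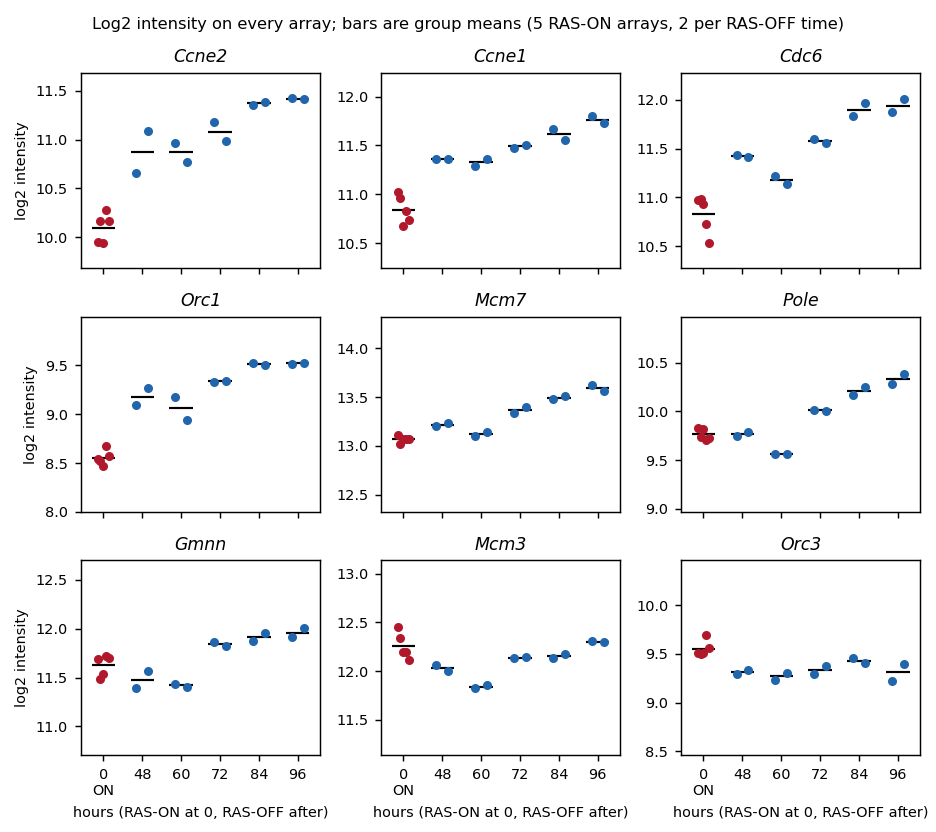
Log2 intensity of 9 members on every array against hours, with RAS-ON arrays at 0 h in red, RAS-OFF arrays in blue and bars at the group means (5 arrays at 0 h, 2 at each RAS-OFF time). Ccne2, Ccne1, Cdc6 and Orc1 are above all RAS-ON arrays from 48 h on, Pole and Gmnn are at or below them until 60 h and above them later, and Mcm3 and Orc3 are lower or near them.

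The second comparison sets late RAS-OFF leukemias (84 and 96 h, 4 arrays) against early ones (48 and 60 h, 4 arrays). It uses no RAS-ON array in the difference. Of the 46 genes 34 were higher late, 0 were lower and 12 did not pass (limma, adjusted p below 0.05), where 4.91% of all genes were called higher and 8.76% lower. All 46 changes were positive, between 0.08 for Orc3 and 0.62 for Cdc6, with a median of 0.35. Over all genes 50.2% were positive and the median was 0.00. In 38 of the 46 (82.6%) every late array lay above every early array, as in 8.07% of all genes. Over all genes 893 were called higher and 1594 lower; with each array centred on its median the split was 1509 higher and 1232 lower, and the members' median was 0.405. Without 3 RAS-OFF arrays that stood apart in an earlier look at these data (48, 84 and 96 h replicate 1), 17 members were called higher and 0 lower.

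**Figure D3:**
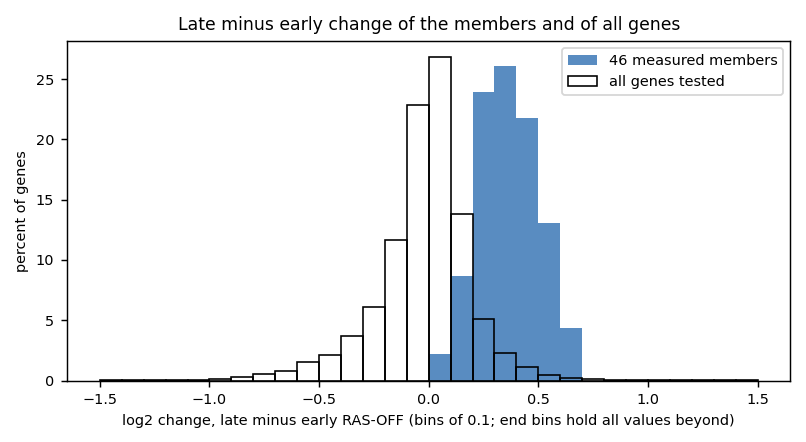
Share of genes (percent) by late minus early log2 change in bins of 0.1, for the 46 measured members (filled) and all 18193 genes tested (outline). The members lie between 0.08 and 0.62, to the right of most genes, whose median is 0.00.

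In the loading factors, the helicase and the polymerases every measured gene was called higher late. All 3 loading genes were higher late: Cdc6 averaged 11.92 ± 0.08 late and 11.30 ± 0.15 early (SD, n = 4 each), a change of 0.62 ± 0.09 (SE; limma, adjusted p = 0.00058). Cdt1 changed by 0.51 ± 0.08 and Gmnn by 0.49 ± 0.07. All 6 MCM subunits were higher, from 0.28 ± 0.06 for Mcm6 to 0.37 ± 0.05 for Mcm7. Mcm3, lower than RAS-ON over all times, was higher late than early by 0.29 ± 0.07. The Mcm2 call was lost when any of 7 arrays was left out (adjusted p up to 0.162, without 84 h replicate 2), and that of Mcm3 without 60 h replicate 1 (0.0504) or 84 h replicate 2 (0.0543).

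All 7 primase and polymerase genes were higher late. Pole had the smallest adjusted p of any member, with 10.27 ± 0.09 late and 9.66 ± 0.12 early (SD, n = 4 each), a change of 0.60 ± 0.06 (SE; limma, adjusted p = 3.492e-05), or 1.52-fold. Prim2 changed by 0.55 ± 0.08, Pold1 by 0.54 ± 0.07, Pola1 by 0.43 ± 0.07, Pola2 by 0.42 ± 0.07, Pole2 by 0.41 ± 0.08 and Prim1 by 0.35 ± 0.07. Every late array stood above every early array in all 7.

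The remaining groups were mixed in calls though not in sign. In origin firing 4 of 7 were higher late, namely Gins1 (0.48), Cdc7 (0.47), Mcm10 (0.41) and Gins3 (0.29), and Cdc45 (0.27), Gins2 (0.30) and Dbf4 (0.20) did not pass. Among the clamp, loader, RPA and joining genes 6 of 10 were higher, led by Lig1 at 0.55 ± 0.06 and Fen1 at 0.48 ± 0.07, with Rfc4 (0.40), Rpa1 (0.34), Rpa2 (0.33) and Rfc2 (0.25). Pcna changed by 0.21 ± 0.08 and did not pass, but passed without RAS-OFF 96 h replicate 1 (0.29, adjusted p = 0.0194). Among origin recognition genes Orc1 (0.40), Orc6 (0.39) and Orc5 (0.32) were higher, and Orc2 (0.16) and Orc3 (0.08) did not pass. Uhrf1 (0.45) and Dnmt1 (0.31) were higher and Chaf1b (0.24) did not pass. Of the E2F and cyclin E genes Ccne2 (0.52), E2f8 (0.50) and Ccne1 (0.34) were higher, and E2f2 (0.29) and E2f1 (0.19) did not pass. E2f2 differed from RAS-ON by 48 h. Its later increment did not pass on the brightest probe set but passed on its other probe set (0.33, limma adjusted p = 0.007261). The other E2f1 probe sets gave 0.32 (passed, limma adjusted p = 0.02506) and 0.09 (did not pass). Those of Orc2 gave 0.32 (passed, limma adjusted p = 0.02436) and -0.22 (did not pass). Leaving out 1 array ended the calls of Orc5 (any of 5 arrays, adjusted p up to 0.075), Rfc2 (any of 5, up to 0.104), Rfc4 (48 h replicate 1, 0.0675, or 84 h replicate 2, 0.052), Gins3 (48 h replicate 1, 0.0546), Rpa2 (48 h replicate 1, 0.0536) and Dnmt1 (84 h replicate 2, 0.0611). It brought calls for Cdc45, Gins2 and Rfc1 (any of 3 arrays, adjusted p down to 0.0353, 0.0304 and 0.0285) and for E2f2 (RAS-ON replicate 2, 0.0472).

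**Figure D4:**
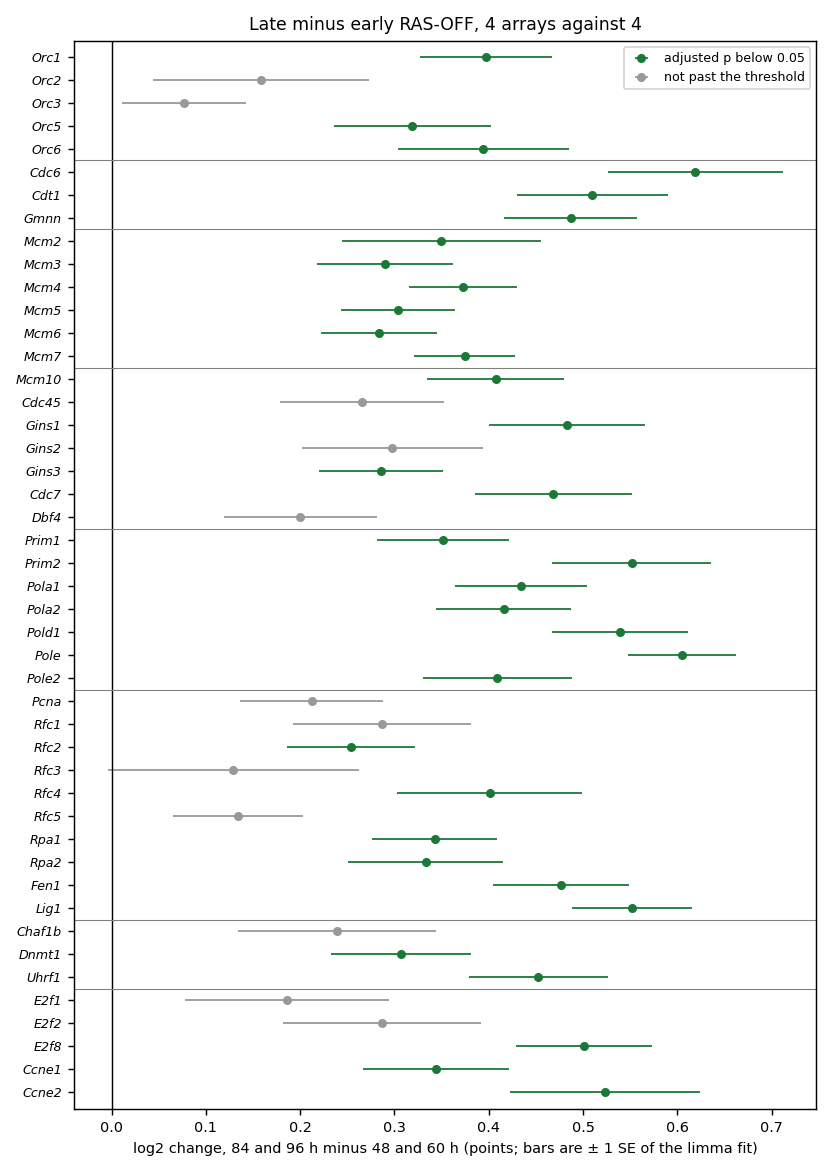
Late minus early log2 change (points) with 1 SE of the limma fit on either side (bars) for the 46 measured genes, grouped by role; green marks an adjusted p below 0.05. All points are above 0, and the 12 grey ones did not pass.

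Other probe sets of the same genes bear on how far these values depend on the one chosen. The 46 genes have 100 probe sets. Against RAS-ON 42 were higher, 14 lower and 44 did not pass, and of the 37 genes with several probe sets 22 had the same sign in all. In E2f8, Mcm5, Pold1 and Uhrf1 probe sets were called in opposite directions, so the direction of these 4 against RAS-ON is uncertain. For late against early, 60 of the 100 were higher and 0 lower, 94 were positive, and 31 of the 37 genes had the same sign throughout. The matching shares over the probe sets of all genes were not counted, so these counts describe the members alone. With the mean of a gene's probe sets the calls against RAS-ON ended for Pold1 (-0.07), Uhrf1 (-0.04), E2f8 (0.05), Gins3 (0.04), Pole2 (0.07) and Mcm5 (0.11), besides Mcm10 and E2f1. The change moved by over 1.5 times but still passed for Prim2 (0.23), Cdc7 (0.24) and Mcm7 (0.19). Late against early, that setting ended the calls of E2f8 (0.15), Gins3 (0.14), Pole2 (0.26), Rpa2 (0.22) and Uhrf1 (0.21). Mcm10 (0.23), Pola1 (0.26), Pola2 (0.26), Pold1 (0.35) and Prim2 (0.32) were smaller and still passed. The probe set used was of the kind that may cross-hybridise (suffix x) in 4 genes, Mcm5 and Pold1 among them, and of the kind shared by related transcripts (suffix s) in 3.

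The choice of RAS-ON arrays also ended calls. With replicates 4 and 5 alone those of Orc2 (0.16), Orc6 (0.10), Rpa1 (0.10), Gins3 (0.13) and Pold1 (0.18) did not pass, and with replicates 1 to 3 alone those of Mcm2 (0.07), Mcm5 (0.11), Pola1 (0.14), Pold1 (0.16), Pole2 (0.13) and Uhrf1 (0.10).

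Other genes of the pathway were read from lists that were put together with earlier results of these data known. Of 33 further replication fork and licensing genes 18 rose (54.5%), 6 fell (18.2%) and 9 did not pass against RAS-ON, with a median of 0.17. The shares over all genes were 20.1% higher and 28.7% lower. The largest rises were Cul4a (1.09 ± 0.08), a scaffold of the ubiquitin ligase that degrades Cdt1 in S phase, Wdhd1 (0.65 ± 0.06), which ties polymerase alpha to the helicase, Slbp (0.60 ± 0.05), which binds histone mRNA, and Atad5 (0.53 ± 0.05), which unloads PCNA. The largest falls were Pold4 (-0.83 ± 0.06) and Pold2 (-0.55 ± 0.07), accessory subunits of polymerase delta whose catalytic subunit Pold1 changed by 0.17, Mcmbp (-0.53 ± 0.05), a binding partner of the MCM proteins, and Mcm9 (-0.23 ± 0.08), a helicase used in repair. The Mcm9 call was lost without RAS-ON replicate 4 (adjusted p = 0.0691) or 5 (0.0683). With the mean of a gene's probe sets Mcmbp changed by -0.26 and Mcm9 by -0.12, both still called. Late against early, 17 of the 33 were higher and 2 lower, with a median of 0.30, where 4.91% of all genes were higher and 8.76% lower.

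Of 17 regulators of E2F and cyclin E, 6 rose (35.3%), 4 fell (23.5%) and 7 did not pass, with a median of 0.00. Of all genes 20.1% were called higher and 28.7% lower. Tfdp2, a dimer partner of E2F factors, rose by 1.34 ± 0.07, and Ccna2, which encodes the S-phase cyclin A2, by 0.46 ± 0.06. Cdkn1b, which encodes the cyclin E-Cdk2 inhibitor p27, rose by 1.09 ± 0.07, and Rb1, the E2F-binding retinoblastoma protein gene, by 0.87 ± 0.07. The falls were Cdkn1a, which encodes the inhibitor p21 (-0.87 ± 0.13), E2f5, a repressor E2F (-0.32 ± 0.06), Rbl2, an Rb relative (-0.32 ± 0.06), and Cdc25a, a phosphatase that activates Cdk2 (-0.20 ± 0.05). With the mean of a gene's probe sets Rb1 changed by 0.25 and Cdkn1b by 0.51, both still called, while E2f5 (-0.13) and Cdc25a (-0.17) no longer passed. Late against early, 7 of the 17 were higher (4.91% of all genes) and 1 was lower (8.76%).

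Markers of the cell types of the spleen are given for both comparisons. Beside their counts, 20.1% of all genes were called higher and 28.7% lower against RAS-ON over all times. At 48 h the shares were 13.7% each way, and late against early 4.91% higher and 8.76% lower. Erythroid markers were already high at 48 h, with 11 of 11 higher than RAS-ON and a median of 1.43, when 8 of the 46 replication genes were higher and their median was 0.05. Late against early, 5 of the 11 were higher with a median of 0.26, and their summed intensity was 85127 to 94194 late and 71806 to 75031 early. Of the myeloid leukemia markers 0 of 10 were higher and 4 lower late, with a summed intensity of 25345 to 28164 late and 31372 to 35718 early. Of 12 red pulp macrophage markers 10 were higher and 1 lower against RAS-ON, and 0 were higher and 1 lower late. Their summed intensity was 19727 to 25680 in RAS-OFF and 12637 to 18226 in RAS-ON arrays. All 8 megakaryocyte markers were higher against RAS-ON, with summed intensities of 23078 to 27965 in RAS-OFF and 15889 to 20316 in RAS-ON arrays, and 0 passed late against early. Against RAS-ON, 7 of 9 stromal markers were higher and 1 lower, 4 of 7 natural killer markers higher and 1 lower, 2 of 6 T cell markers higher and 1 lower, and 1 of 6 B cell markers higher and 5 lower. Late against early, 0 of the 7 natural killer markers were higher and 4 lower, with a median of -0.41 and a summed intensity of 2504 to 3238 late and 3522 to 4342 early. In the same comparison 0 of 9 stromal markers were higher and 1 lower, 0 of 6 T cell markers higher and 1 lower, and 1 of 6 B cell markers higher and 1 lower. The part of any of these cell types in the changes of the replication genes was not tested.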

How the data were processed

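RNA of leukemic spleens was hybridised to Affymetrix mouse expression arrays. The authors deposited 1 intensity per probe set and array, made with RMA per the submitters' processing notes; the version is not given in the sources used here. RMA forces similar distributions on all arrays, so a change of most genes in the same direction would not be visible. The deposited intensities were on a linear scale, and log2 of each was taken. Of 45101 probe sets, 34945 had 1 symbol, 932 several, 9160 none and 64 were controls. The brightest probe set stood for each of 18193 genes, with no filter on dim genes; 34741 of the probe sets had an identifier in the RefSeq table, which changed 0 symbols.

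Groups came from the sample titles. limma 3.58.1 in R 4.3.3 was fitted with 1 mean per group and 1 shared spread, two-sided, with Benjamini-Hochberg adjustment over all 18193 genes, and genes under 0.05 were called. Contrasts set the average RAS-OFF group mean, and then each time, against RAS-ON, and 84 and 96 h against 48 and 60 h. Errors of changes are standard errors of the fit, and SDs over the 10 RAS-OFF arrays include differences between times. The fit was tested on simulated data. The text names all members, and of the other pathway genes the 4 largest called rises and falls of each list against RAS-ON. The members, lists, markers and alternative settings were chosen with earlier results of these data known. The alternatives were the mean of a gene's probe sets, leaving out the dimmest 40% of genes, array weights, a trended and robust eBayes, median-centred arrays, a replicate block, leaving out each array in turn, leaving out 3 RAS-OFF arrays, RAS-ON replicates 1 to 3 or 4 and 5 alone, and only the groups compared.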

Additional observations from a re-analysis of the deposited data

Results flagged for a closer look

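The 2 ends of the RAS-OFF course differed for 34 members, which were higher at 84 and 96 h than at 48 and 60 h by limma's test of that difference. The late minus early log2 changes of the origin recognition genes were 0.40 for Orc1, 0.32 for Orc5 and 0.39 for Orc6. Those of the loading genes were 0.62 for Cdc6, 0.51 for Cdt1 and 0.49 for Gmnn. In the helicase they were 0.35 for Mcm2, 0.29 for Mcm3, 0.37 for Mcm4, 0.30 for Mcm5, 0.28 for Mcm6 and 0.37 for Mcm7. In origin firing they were 0.41 for Mcm10, 0.48 for Gins1, 0.29 for Gins3 and 0.47 for Cdc7. Primase and polymerase genes gave 0.35 for Prim1, 0.55 for Prim2, 0.43 for Pola1, 0.42 for Pola2, 0.54 for Pold1, 0.60 for Pole and 0.41 for Pole2. Fork genes gave 0.25 for Rfc2, 0.40 for Rfc4, 0.34 for Rpa1, 0.33 for Rpa2, 0.48 for Fen1 and 0.55 for Lig1. Dnmt1 gave 0.31, Uhrf1 0.45, E2f8 0.50, Ccne1 0.34 and Ccne2 0.52.

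Among the other pathway genes named, 7 were higher late: Tfdp2 by 0.75, Atad5 by 0.68, Wdhd1 by 0.59, Rb1 by 0.54, Cul4a by 0.47, Slbp by 0.29 and Ccna2 by 0.23. The 3 that were lower late were Pold4 with -0.58, Cdc25a with -0.30 and Mcmbp with -0.24. The Ccna2 call was lost without any of 12 arrays (adjusted p up to 0.18), that of Mcmbp without any of 6 (up to 0.122) and that of Cdc25a without 48 h or 84 h replicate 1 (0.0582 and 0.0605). Among the 5 RAS-ON arrays, 0 of 62 named genes had an array outside the spread of the others by Dixon's test.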

How the results depend on the processing

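Of the 32 members called against RAS-ON, 15 were called under all 25 alternatives, and of the 34 called late against early, 13 were. The median member change was 0.180 to 0.213 against RAS-ON and 0.324 to 0.370 late against early when 1 array was left out, and 0.118 against RAS-ON with the mean of a gene's probe sets. When 1 array was left out, the members called higher numbered 26 to 30 over all times, 6 to 9 at 48 h, 5 to 8 at 60 h, 13 to 23 at 72 h, 22 to 32 at 84 h, 25 to 34 at 96 h and 29 to 37 late against early. Those called lower numbered 1 to 4 over all times, 0 to 2 at 48 h, 1 to 9 at 60 h, 0 to 1 at 72 h, 0 at 84 h, 0 to 2 at 96 h and 0 late against early. A time left with 1 array took its spread from the other groups.

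Without the 3 RAS-OFF arrays 17 were higher late, with fewer arrays in the test. Members called lower at 48 h (1) numbered 3 with arrays centred, 2 with trend and robust settings or array weights, 0 without the 3 arrays, 3 with either RAS-ON set alone and 0 with only the groups compared. At 60 h (8) they numbered 5 without the 3 arrays and 4 with only the groups compared. At 72 h (1) they numbered 2 with RAS-ON replicates 4 and 5 and 0 with the mean of probe sets, centring, trend, RAS-ON replicates 1 to 3, without the 3 arrays or with only the groups compared. At 84 h (0) there was 1 with RAS-ON replicates 4 and 5. At 96 h (1) there were 0 with the mean of probe sets, centring, RAS-ON replicates 1 to 3, without the 3 arrays or with only the groups compared. The cause of these moves was not tested.

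Deviations of same-numbered RAS-OFF arrays from their group means had correlations of -0.231 to 0.217 between times. With 2 arrays a time this cannot show whether the numbers pair the samples. With the replicate block 19 members were higher over all times, and 4, 2, 1 and 0 were lower at 48, 72, 84 and 96 h.

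Some signs turned, among them those of the called changes of Pold1 and Uhrf1 against RAS-ON. Against RAS-ON, the mean of probe sets gave 0.09 for Mcm6, 0.03 for Dnmt1, 0.04 for Rfc3, -0.07 for Pold1 and -0.04 for Uhrf1. Centring gave 0.00 for Cdc45 and 0.01 for Rfc3, array weights 0.02 for Rfc3, and the replicate block 0.08 for Rfc3 and -0.03 for Rpa2. RAS-ON replicates 4 and 5 alone gave 0.04 for Cdc45, -0.12 for Dbf4, 0.07 for Dnmt1 and -0.07 for Rpa2, and replicates 1 to 3 alone 0.03 for Chaf1b, 0.04 for Rfc1 and 0.12 for Rfc3. Without the 3 arrays Cdc45 was 0.01 and Rfc3 0.07. With 1 array left out, Cdc45 reached 0.01 to 0.03, Rfc3 -0.08 to 0.07, Dbf4 -0.01 and Rpa2 -0.05 to 0.06. Late against early, the mean of probe sets gave -0.00 for Orc3 and -0.49 for Cdkn1b (adjusted p = 0.0228, against 0.12, not called, on the brightest probe set), centring gave 0.01 for E2f5, leaving out the 3 arrays gave 0.00 for E2f5 and 0.04 for Pold2, and leaving out 96 h replicate 2 gave -0.06 for Rfc3 (-0.06 to 0.32 over the arrays left out).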
